A study of Mus musculus with 2 samples.

Results

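The Hedgehog signalling genes described here are *Shh*, *Ptch1*, *Boc*, *Hhip*, *Smo*, *Gli1*, *Gli2*, *Gli3* and *Sufu*. They were taken by gene symbol with no filter on their values, though with earlier results of these data known. All 9 had a single row among the 18498 rows of the deposited expression table. The table compares 2 poly(A) RNA libraries of the mouse tongue. The CvP library was made from circumvallate papillae, the large taste papillae at the back of the tongue, and the Epi library from tongue epithelium that held no papillae. Both came from male C57BL/6J mice of 12 to 30 weeks on a normal chow diet, and RNA of at least 20 mice was pooled for each library. Each tissue therefore had 1 library and no replicate, no test was made, and the tissue cannot be told apart from the library. In the study's description of its RT-PCR, a CvP sample also holds the epithelium around the taste buds.

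Hedgehog signalling begins with a secreted, lipid-bearing ligand such as SHH. The ligand binds the receptor PTCH1 together with coreceptors such as BOC, and binding lifts the block that PTCH1 places on the transmembrane protein SMO. Active SMO frees the zinc finger transcription factors GLI2 and GLI3 from SUFU and from processing to repressors, and the activators turn on target genes, among them *Gli1*, *Ptch1* and *Hhip* in many tissues. In taste buds SHH is known as a product of postmitotic basal cells and of taste nerve fibres, and the pathway is needed to renew taste cells.

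The values are RPKM, reads per kilobase of exon model scaled to the mapped reads of the library. They adjust for length and depth, but not for a difference in RNA composition between the libraries. Comparisons between genes also rest on the length behind each value, whose uncertainty the intervals below leave out. The depth, read from the steps between the lowest values, was about 28400000 mapped reads in CvP and 27900000 in Epi. Reads per gene were estimated from RPKM, depth and length, and each 95% interval given below is an exact interval that covers counting error only, not differences between animals or dissections. Over the 10363 rows with an RPKM of at least 1 in both libraries, the median of the CvP/Epi ratios came to 1.31, or 0.39 on the log2 scale, and the ratio of a gene can be read against it. In bulk tissue, fewer cells of a type and less RNA per cell cannot be told apart.

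The 9 genes fell into 3 sets. *Shh*, *Ptch1* and *Gli1* were far higher in the CvP library, with CvP/Epi ratios of 16.8 or more. *Gli2*, *Gli3*, *Sufu* and *Smo* were higher by ratios from 1.53 to 3.29, and *Boc* and *Hhip* had the lower value in CvP. As summed RPKM, the 9 genes stood at 87.45 in CvP against 27.30 in Epi.

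**Figure D1:**
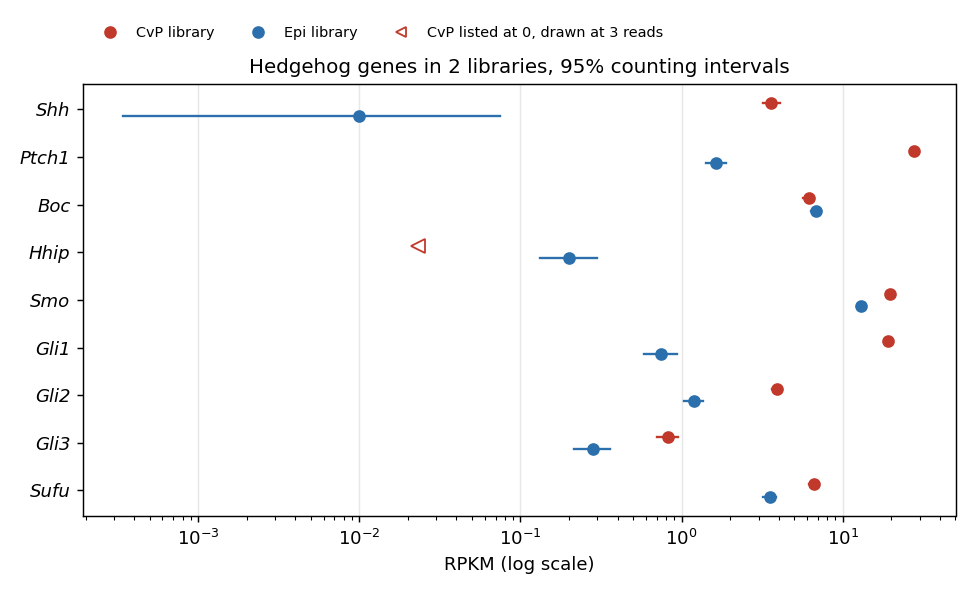
RPKM of the 9 Hedgehog genes on a log axis, with CvP in red, Epi in blue and lines for 95% exact Poisson intervals of the estimated reads. *Shh*, *Ptch1* and *Gli1* have the widest gaps between libraries, and *Hhip*, listed at 0 in CvP, is drawn as an open triangle at 3 reads.

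*Shh* encodes the ligand. Its row (gene 20423, NCBI37/mm9 chromosome 5, 28783380 to 28793641, minus strand) had an RPKM of 3.61 in CvP against 0.01 in Epi. These values correspond to about 273 reads in CvP and 1 read in Epi. The transcript was thus all but confined to the CvP library, and the size of its ratio rests on a single Epi read. Computed from whole reads the ratio was 269, with an interval from 47.8 to 10644. The quotient of the rounded RPKM values, 361, lies within that interval. In GENCODE M1, exons of *Shh* share 361 bases with *Gm17493* and 291 bases with *9530036O11Rik*, both on the opposite strand, and the library kit and counting were not stated to use strand. The row of *9530036O11Rik* was at 0.01 in CvP against 0.00 in Epi. *Gm17493*, the larger overlap, had no row under that symbol, so its level is not known here.

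The other ligands of the family were near the detection limit in both libraries. *Ihh*, which acts in cartilage and gut, had an RPKM of 0.03 in CvP against 0.02 in Epi. *Dhh*, a ligand of Schwann cells and testis, had 0.00 in CvP against 0.02 in Epi. Neither exceeded 3 estimated reads in a library, so no fold was calculated. Among the genes for lipidation and release of the ligand, *Disp2*, a dispatched homologue, had an RPKM of 2.01 in CvP against 0.02 in Epi, from 378 and 4 estimated reads. Its ratio was 100.5 (interval 36.0 to 343). *Hhat*, the acyltransferase that adds palmitate to the ligand, was at 0.52 in CvP against 0.20 in Epi (ratio 2.60, interval 1.42 to 4.92). The 3 *Scube* genes did not exceed an RPKM of 0.07 in either library.

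*Ptch1* encodes the receptor, and its transcription is itself raised by the pathway in many tissues. It was the most abundant of the 9 genes in CvP, at an RPKM of 27.47 (interval 26.6 to 28.4), and only the fourth in Epi, at 1.64 (1.42 to 1.89). The CvP/Epi ratio was 16.8 (14.5 to 19.4), which is 12.8 after division by the median ratio. The row (gene 19206) covers chromosome 13 from 63612841 to 63666828, minus strand.

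Because *Ptch1* is a classic target of the GLI factors, letters of the GLI consensus motif GACCACCCA were looked for near the listed starts of the genes, on both strands. In the 300-base RefSeq promoter windows (GRCm38.p6), which were at hand for 6 of the 9 genes and not for *Shh*, *Gli1* and *Boc*, the motif was in none of the 6. It was in 83 of all 32851 windows (0.253%). Within 5 kb on either side of the listed start on NCBI37/mm9, a window chosen after the promoter result was seen, the motif was found for 2 of the same 6 genes, against 8.20% of all 18498 rows. *Shh*, *Gli1* and *Boc* are among those rows, but their own windows were not read out, so the count covers only part of the 9 genes. *Ptch1* held it at 2 places, 915 and 3765 bases upstream of its listed start, both in an intron of *Ptch1* in the GENCODE M1 annotation, where the gene begins farther upstream. *Sufu* held it at 1 place, 4208 bases downstream, overlapping an annotated exon. The *Ptch1* stretches are printed because they show these letters in their context, along the gene's minus strand from 5′ to 3′, with the motif or its reverse complement in capitals. A match describes the sequence and does not show binding.
Ptch1 915 bases upstream, chr13:63667693-63667801: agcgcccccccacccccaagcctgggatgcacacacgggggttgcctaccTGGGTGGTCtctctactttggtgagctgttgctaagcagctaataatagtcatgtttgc
Ptch1 3765 bases upstream, chr13:63670543-63670651: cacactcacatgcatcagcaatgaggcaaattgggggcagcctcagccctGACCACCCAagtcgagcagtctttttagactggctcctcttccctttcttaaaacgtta

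*Boc* encodes a coreceptor of the immunoglobulin superfamily that presents the ligand to PTCH1. It stood at an RPKM of 6.13 in CvP against 6.80 in Epi. The CvP/Epi ratio was 0.901 (interval 0.816 to 0.994). This small difference depended on scaling, since the ratio was 0.687 after division by the median ratio and 1.09 with both libraries rescaled to a common sum. *Boc* (gene 117606, chromosome 16, 44485158 to 44558983, minus strand) was the second most abundant of the 9 genes in Epi and the fifth in CvP. The other coreceptors did not pass a ratio of 3. *Cdon*, the closest relative of *Boc*, had an RPKM of 3.01 in CvP against 1.69 in Epi, and *Gas1*, a membrane-anchored coreceptor, had 6.53 and 6.01. *Lrp2*, the endocytic receptor megalin, did not exceed 0.01.

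The order of receptor and coreceptor differed between the libraries. *Ptch1* stood 4.48-fold above *Boc* in CvP (interval 4.14 to 4.85). In the Epi its level was 0.241 of that of *Boc* (0.205 to 0.282).

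*Hhip* encodes a membrane protein that binds and sequesters the ligand, and it is a pathway target in many tissues. It went the opposite way from *Ptch1* and *Gli1*. *Hhip* (gene 15245, chromosome 8, 82489750 to 82581907, minus strand) was listed at 0 in CvP, which allows an RPKM of up to 0.0231 at 3 reads, and at 0.20 in Epi, about 26 reads. The 95% interval of the CvP/Epi ratio, which also counts the error of the Epi reads, ran from 0 to 0.15, or to 0.0738 with reads estimated from the listed length of 9.078 kb. Both limits take the rounded 0 as 0 reads, although at the listed length it could also stand for 1 read. With the Epi reads taken as they stand, against the floor of 3 reads in CvP, *Hhip* was at least 8.81-fold lower in CvP, or 17.3-fold with the listed length. The level was low in both libraries. Of the 895 rows at 0 in CvP, 12, *Hhip* included, had as many estimated Epi reads as *Hhip* or more. The symbols of 93 rows begin with *Rpl* or *Rps* and a digit, and these need not all be ribosomal protein genes. Of the 93, 1 (*Rpl39l*) was at 0 in CvP, and 0 were at 0 in Epi.

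*Smo* encodes the protein that carries the signal across the membrane and is usually not regulated by the pathway at the level of its transcript. *Smo* reached an RPKM of 19.73 in CvP against 12.91 in Epi. The ratio was 1.53 (interval 1.43 to 1.64), or 1.16 after division by the median ratio. *Smo* (gene 319757, chromosome 6, 29685497 to 29711366, plus strand) was the most abundant of the 9 genes in Epi. In the CvP it came after *Ptch1*, at a level whose interval overlapped that of *Gli1*. The ratio of *Ptch1* to *Smo* was 1.39 in CvP (1.32 to 1.47) and 0.127 in Epi (0.109 to 0.148).

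The 3 *Gli* genes differed in size of difference. *Gli1*, which acts as an activator and whose transcript is widely used as a readout of the pathway, had an RPKM of 19.14 in CvP against 0.74 in Epi, from 1990 and 76 estimated reads. The ratio was 25.9 (interval 20.5 to 32.8). *Gli2*, the main activator downstream of SMO, had 3.92 in CvP against 1.19 in Epi, a ratio of 3.29 (2.83 to 3.85). *Gli3*, which acts mostly as a repressor, had 0.82 and 0.28, about 190 and 64 reads, a ratio of 2.93 (2.19 to 3.94). The intervals of *Gli2* and *Gli3* overlapped each other and both held the limit of 3 used below, while that of *Gli1* lay above both.

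The order of the *Gli* genes was not the same in both libraries. In the CvP the level of *Gli1* was 4.88 times that of *Gli2* (interval 4.49 to 5.32). In the Epi it was 0.622 of that of *Gli2* (0.475 to 0.815). *Gli2* exceeded *Gli3* by close values in both, 4.78-fold in CvP (4.07 to 5.64) and 4.25-fold in Epi (3.19 to 5.68). The rows lie on chromosome 10 from 126766938 to 126778635 (*Gli1*, minus strand), on chromosome 1 from 120730638 to 120950196 (*Gli2*, minus strand) and on chromosome 13 from 15555556 to 15821858 (*Gli3*, plus strand). Exons of *Gli1* share 55 bases with *Arhgap9* on the opposite strand, whose own RPKM was 0.51 in CvP against 0.12 in Epi.

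*Sufu* encodes the protein that holds GLI factors in the cytoplasm and limits their activity. The RPKM of *Sufu* (gene 24069, chromosome 19, 46471408 to 46561150, plus strand) was 6.63 in CvP against 3.53 in Epi, and the ratio of 1.88 had an interval from 1.68 to 2.11. In the CvP its interval overlapped that of *Boc*. Divided by the median ratio, the value was 1.43.

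**Figure D2:**
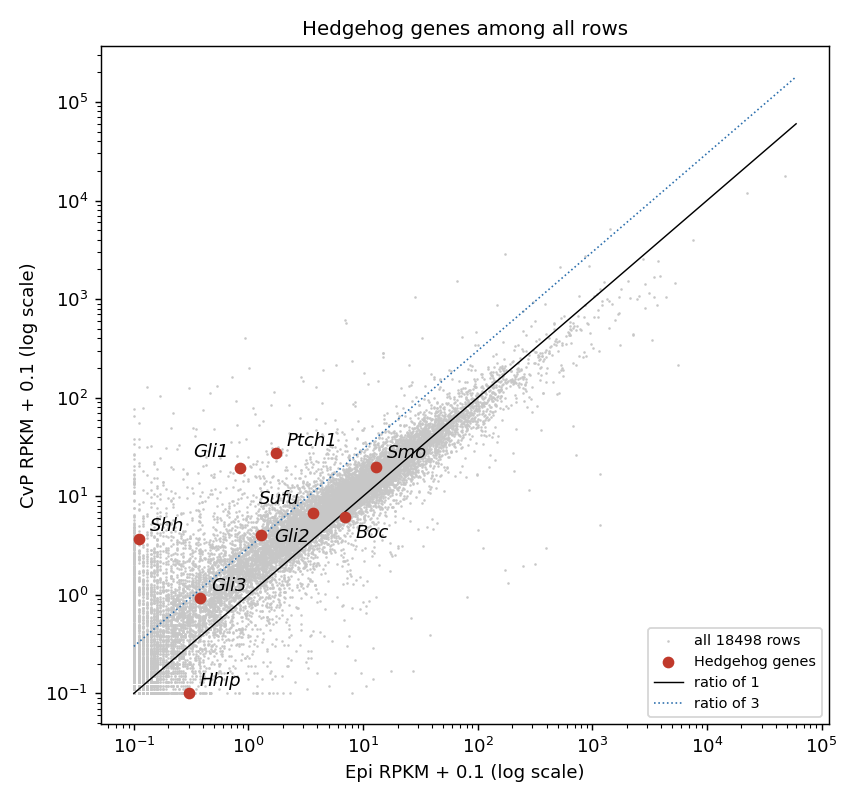
CvP RPKM against Epi RPKM for all 18498 rows in grey and the 9 Hedgehog genes in red, both axes on a log scale with 0.1 added, with lines at ratios of 1 and 3. *Gli1*, *Ptch1* and *Shh* lie well above the line of 3, *Gli2* and *Gli3* lie along it, *Smo* and *Sufu* lie between the lines, and *Boc* and *Hhip* lie below the line of 1.

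Ranked from the highest level, the 9 genes in CvP ran *Ptch1*, *Smo*, *Gli1*, *Sufu*, *Boc*, *Gli2*, *Shh*, *Gli3* and *Hhip*. The neighbours *Smo* and *Gli1*, *Sufu* and *Boc*, and *Gli2* and *Shh* had overlapping intervals. In the Epi the order was *Smo*, *Boc*, *Sufu*, *Ptch1*, *Gli2*, *Gli1*, *Gli3*, *Hhip* and *Shh*, and only *Gli3* and *Hhip* had overlapping intervals as neighbours. Among all rows, the CvP levels placed *Ptch1* at number 2044, *Smo* at 2941 and *Gli1* at 3035, whereas in Epi *Ptch1* was number 9568 and *Gli1* number 11039. *Smo* moved less, to number 3563.

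The members were also counted against the limits of the study, a CvP/Epi ratio above 3 and a CvP RPKM above 10. The minimum RPKM of 1 in CvP or Epi was reached by 7 of the 9 genes, all but *Gli3* and *Hhip*, and *Shh*, *Gli1*, *Ptch1* and *Gli2* reached a ratio above 3. The background for this limit was 15.9%, or 1998 of the 12549 rows that reached an RPKM of 1 in either library. *Gli2* at 3.29 lay just inside the limit and *Gli3* at 2.93 just outside it. After division by the median ratio *Gli2* no longer passed. At a limit of 2 the same 4 genes passed, beside a background of 28.2%, and *Gli3* passed as well when no minimum RPKM was set. The opposite limit, an Epi/CvP ratio above 3, was met by 1.96% of the rows and by none of the 7 genes, since *Hhip* did not reach the minimum. Both criteria of the study were met by 2 of the 9 genes, *Ptch1* and *Gli1*, against 2.35% of all 18498 rows. *Shh* was left out there by its CvP RPKM of 3.61.

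On the log2 scale with 0.1 added to each RPKM, which understates the ratio of low genes, the median CvP/Epi value of the 9 genes was 1.28 and the values ran from -1.58 (*Hhip*) to 5.08 (*Shh*). The median over the 12549 rows was 0.50.

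**Figure D3:**
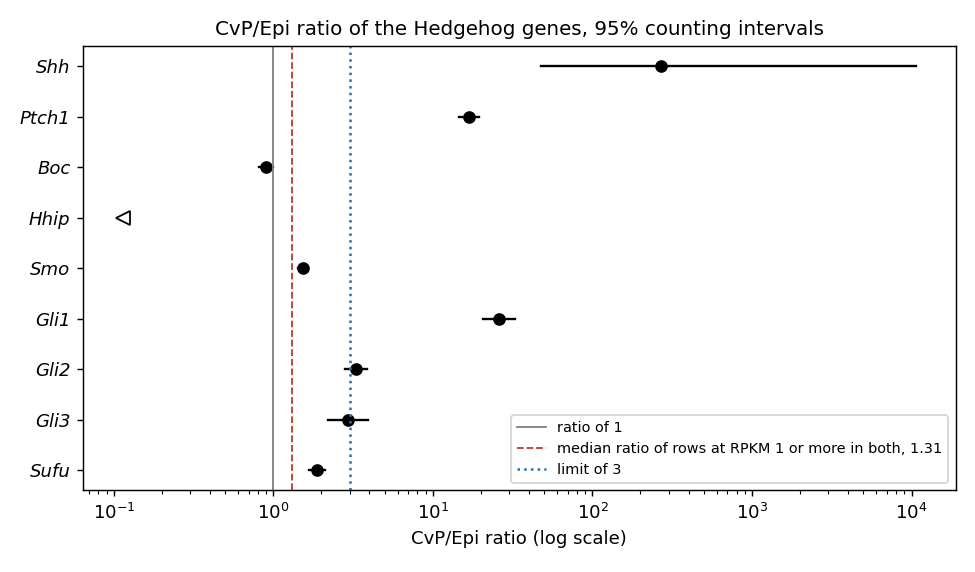
CvP/Epi ratios of the 9 Hedgehog genes, computed from estimated whole reads, on a log axis with 95% exact (Clopper-Pearson) intervals. *Shh*, *Ptch1* and *Gli1* lie to the right of the limit of 3 with their whole intervals, and *Hhip*, with no CvP read, is an open triangle at its bound of 8.81-fold lower.

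Of the 40 other genes of the pathway that were listed by role, 38 had a row and 27 of these reached an RPKM of 1 in either library. Past a ratio of 3 towards the CvP were 7 of them, beside the background of 15.9% of rows, and none passed towards the Epi. The median log2 ratio of the 27 genes, 0.71 with 0.1 added to each RPKM, stood beside 0.50 for the 12549 rows. Among the 7 were *Disp2*, described above, 4 genes that limit or process GLI proteins and 1 that helps SMO signal.

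The 4 regulators lay close to the limit. *Gpr161*, a ciliary receptor that keeps the pathway off through cyclic AMP, had an RPKM of 2.49 in CvP against 0.68 in Epi (ratio 3.66, interval 2.72 to 4.96). *Prkacb*, a catalytic subunit of protein kinase A, had a ratio of 3.22, *Tulp3*, which carries receptors into the cilium, one of 3.11, and *Btrc*, a ubiquitin ligase adaptor for phosphorylated GLI, one of 3.07. The other 6 regulators, *Spop*, *Gsk3b*, *Csnk1a1*, *Prkaca*, *Cul3* and *Kif7*, had ratios from 0.927 to 1.43. After division by the median ratio 3 of the 7 genes still passed, and with 1 added to each RPKM 0 of them did.

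Of the 10 ciliary and other positive components, 9 reached an RPKM of 1 and 1 passed, the arrestin *Arrb2*, at 3.69 in CvP against 0.79 in Epi (ratio 4.67, interval 3.29 to 6.65). *Stk36*, the fused kinase homologue, stayed under the minimum at 0.68 and 0.07. The intraflagellar transport genes and *Evc*, *Evc2*, *Kif3a*, *Arl13b* and *Ulk3* had ratios from 1.46 to 2.64, and *Adrbk1*, a receptor kinase, 0.783. Of 8 further genes known as Hedgehog targets in some tissues, 7 had a row, 4 reached an RPKM of 1 and 0 passed. The background for both counts was 15.9% of rows, and 4 genes are too few to read 0 as a result about targets. The cyclin genes *Ccnd1* and *Ccnd2* had ratios of 1.14 and 1.16, and *Foxm1* and *Bcl2* 2.89 and 1.87. *Foxf2*, a forkhead gene of mesenchyme, was at 0.14 in CvP against 0.88 in Epi, below the minimum in both.

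The libraries also differed in cell type markers, and their part in the Hedgehog values was not tested. Marker counts past the limit stand beside 15.9% of rows towards the CvP and 1.96% towards the Epi. Among markers of taste precursor cells, 5 of 6 had a ratio above 3, and their summed RPKM was 138.36 in CvP against 26.80 in Epi. *Sox2*, a progenitor factor, was at 81.98 in CvP against 19.11 in Epi, and *Foxa2* at 18.84 and 0.06. All 10 markers of mature taste cells passed, with sums of 798.47 and 6.61. Markers of basal epithelium had sums of 2118.65 and 2587.11, and 0 of 6 passed towards the CvP while 1 (*Krt14*) passed towards the Epi. Their median log2 ratio was 0.77, so the median and the sums differed in sign. Markers of keratinized epithelium had sums of 32960.02 and 89219.30, with 4 of 6 past the limit towards the Epi.

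Hedgehog targets are often expressed in mesenchyme, and the fibroblast markers did not move together. *Col1a1*, *Col1a2* and *Col3a1*, the genes of the main fibrillar collagens, were near 0 in both libraries, at 0.04 to 0.06 in CvP and 0.17 to 0.25 in Epi, and *Lum* was listed at 0 in CvP. *Dcn* was at 26.07 in CvP against 127.62 in Epi. *Fbln1* was at 18.54 and 2.79, and *Vim* at 3.99 and 2.79. Of the 8 markers, 2 passed towards the CvP (*Fbln1* and *Pdgfra*) and 1 towards the Epi (*Dcn*), with sums of 50.05 in CvP against 134.06 in Epi. For Schwann cells and nerve, where nerve fibres are a known source of the SHH protein, 6 of 7 markers had a row and all but *Mbp* stayed under an RPKM of 1 in both libraries, with sums of 12.26 and 9.60. Endothelial markers had sums of 2.83 and 0.27, mostly from *Tek* at 2.49 and 0.07. Of these 4 markers, 3 were higher in CvP and 1 (*Tek*) passed the limit towards it. Immune markers had sums of 209.98 and 25.44, of which *Lyz2* gave 131.64 and 0.43. Of the 5 immune markers, 4 passed towards the CvP. Muscle markers had sums of 1.98 and 31.01, with 4 of 5 past it towards the Epi, and gland markers 20.91 and 395.13, with 2 of 4 past it in each direction.

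**Figure D4:**
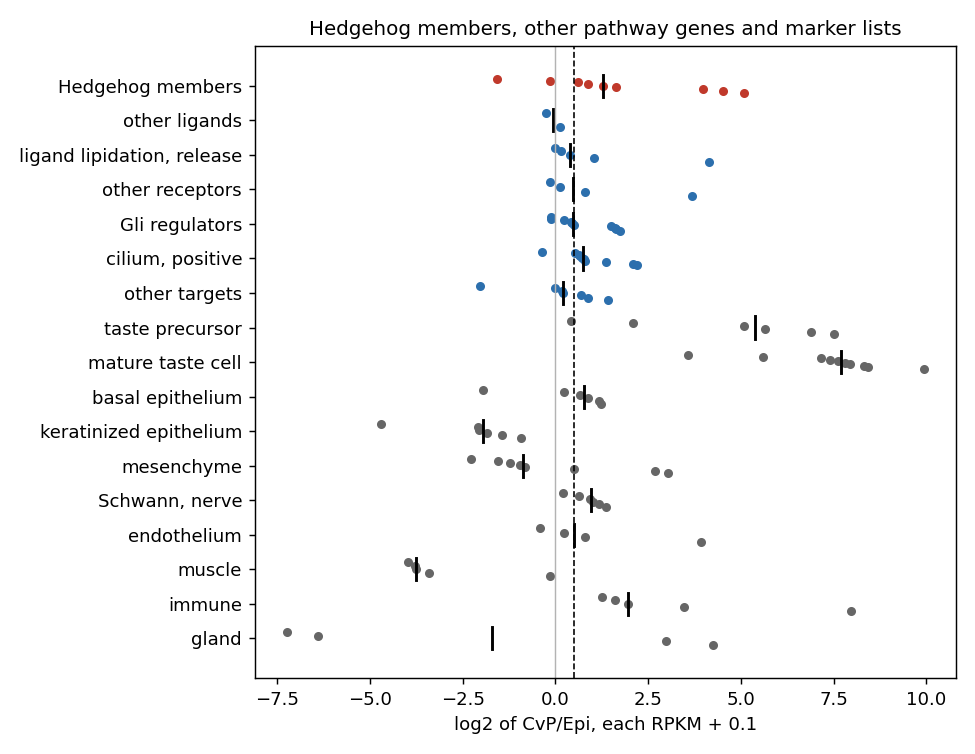
Log2 CvP/Epi ratios, with 0.1 added to each RPKM, of the 9 Hedgehog genes (red), other pathway genes by role (blue) and cell type markers (grey), 1 point per gene. Short black bars are list medians and the dashed line is the median of 12549 rows, 0.50; the Hedgehog genes spread from -1.58 to 5.08, with their median of 1.28 between those of the taste precursor list (5.37) and the keratinized epithelium list (-1.95).

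The rows nearest to *Shh* and *Gli1* in the plane of both log2(RPKM + 0.1) values, over these 2 libraries, were listed as a description. Nearest to *Shh* were *Igf1* (3.54 in CvP against 0.01 in Epi, distance 0.03), *Kndc1* (distance 0.04) and *Dclk2* (distance 0.13). For *Gli1* they were *Fbln2* (18.57 and 0.74, distance 0.04), *Ildr1* (distance 0.24) and *Fgfrl1* (distance 0.27). With 2 libraries such a likeness rests on a pair of values per gene.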

How the data were processed

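RNA of CvP and Epi tissue was sequenced once per tissue. Per the study's methods and the labels, the authors made TruSeq poly(A) libraries, obtained 75 bp single-end reads and mapped them with Bowtie 0.12.7 to NCBI37/mm9. RPKM values, deposited by the authors, came from ERANGE, which uses exon models. The options of ERANGE are not given in the sources used here. The table also lists a length per gene and other annotation columns, deposited by the authors. Their CvP/Epi column was not used, and the other experiments of the study were not analysed here.

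Members were found by gene symbol. The members, gene lists and limits were chosen with earlier results of these data known. The rule for named genes covered the 9 members, other pathway genes past a ratio of 3 or acting as ligand or receptor, the nearest 3 rows to *Shh* and *Gli1*, and up to 3 markers per list. Other genes of the lists that are named (other regulators and ciliary genes, *Hhat*, the targets, *Krt14*, *Pdgfra*, *Lum*, the collagens and *Mbp*) and *Rpl39l* were picked with their values in view. Single values of some listed genes are not reported here.

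Depth was the step that placed most values in the 163 rows of 0.1 kb on whole reads. Among values of fewer than 20 reads in rows no longer than 0.5 kb, 96.4% (CvP) and 97.4% (Epi) were whole to within 0.1 read. Reads per gene used the listed length or, where shorter, that of the longest GENCODE M1 (NCBI37) coding transcript, since for *Ptch1*, for example, 16.01 kb is listed against 4.305 kb. Estimated reads of 0 at an RPKM above 0 were set to 1. Ratios had Clopper-Pearson and levels Poisson 95% intervals, and the floor was 3 reads. Depth and intervals were tested on simulated data. Alternatives were pseudocounts, scalings, minimums and lengths. Python 3.11.15, numpy 2.4.6, pandas 2.3.3, scipy 1.17.1 and matplotlib 3.10.9 were used.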

Additional observations from a re-analysis of the deposited data

How the results depend on the processing

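No paired analysis was possible because 1 library stands for each tissue. The number of genes past a ratio of 3, 4 as deposited, was 3 with a pseudocount of 1 or after division by the median ratio, and 5 with RPKM rescaled to a common sum. The share of all rows past it moved the same way, from 15.9% to 12.4% after division and to 24.5% of 14310 rows after rescaling. That share was not counted with a pseudocount of 1. Both criteria of the study were met by 2 genes. They were met by 4 after rescaling and by 4 at a minimum CvP RPKM of 1. The share of all rows was not counted at either setting, so neither count can be read against a background. The genes added were *Shh* and *Gli2*, whose ratios were above 3 as deposited, and rescaling raised their CvP values past the fixed limit of 10. The median log2 ratio of the 9 genes, 1.28, was 0.75 with a pseudocount of 1, 1.55 with none, 0.88 after division by the median ratio, 1.68 after rescaling, and 1.64 over the members at an RPKM of 1 or more. The other pathway genes past 3, which were 7, were 0 with a pseudocount of 1, 3 after division and 11 after rescaling. Adding 1 to each RPKM gave ratios of 4.56 for *Shh*, 10.8 for *Ptch1*, 11.6 for *Gli1*, 2.25 for *Gli2*, 1.42 for *Gli3* and 0.833 for *Hhip*. Adding 0.1 gave 33.7 for *Shh* and 0.333 for *Hhip*. After division by the median ratio they were 12.8 for *Ptch1*, 19.7 for *Gli1*, 2.51 for *Gli2*, 1.16 for *Smo*, 1.43 for *Sufu* and 0.687 for *Boc*. After rescaling they were 20.2 for *Ptch1*, 3.97 for *Gli2*, 1.84 for *Smo*, 2.27 for *Sufu* and 1.09 for *Boc*, which thereby changed side. A scaling moves every ratio by the same factor, and rescaling raises the RPKM values too. The motif, in 0 of 6 promoter windows, was found for 2 of the 6 genes within 5 kb, a window chosen after seeing the data. Depth limits *Shh* in Epi, *Hhip* in CvP and the other ligands, which rest on 3 reads or fewer.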

Other observations

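The deposited table carries its own pathway column, and 51 rows name the Hedgehog pathway there. They hold 8 of the 9 genes described above and 43 others, among them secreted factors of the Wnt and Bmp families, and were examined after the table was seen. Of the 43, 28 reached an RPKM of 1 in either library. A CvP/Epi ratio of 3 was passed by 6 of the 28, beside 15.9% of all rows at that minimum. The opposite limit was passed by 1, beside 1.96% of those rows. The median log2 ratio of the 28 was 0.47, beside 0.50 for all rows.

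The Wnt and Bmp ligands did not share a direction, and most did not pass the limit. Of 8 Wnt genes at an RPKM of 1 in either library, 2 passed towards the CvP and 0 towards the Epi. Of 5 such Bmp genes, 1 passed each way. The median log2 ratios were 0.51 (Wnt) and -0.20 (Bmp), and the genes named below were picked for their wide differences. *Wnt9a* had an RPKM of 8.60 in CvP against 0.29 in Epi, a ratio of 29.7 (95% interval 20.1 to 45.1). *Bmp6* was at 16.08 and 0.56, a ratio of 28.7 (21.9 to 38.9), and *Wnt5b* at 2.14 and 0.14, a ratio of 15.3 (7.95 to 34.6). In the other direction, *Bmp5* was at 0.06 in CvP against 1.44 in Epi, from 4 and 102 estimated reads. *Wnt3* was listed at 0 in CvP and at 0.99 in Epi, about 85 reads, and did not reach the minimum RPKM of 1. The 95% interval of its CvP/Epi ratio ran from 0 to 0.0436. With the Epi reads taken as they stand, against a floor of 3 reads in CvP, *Wnt3* was at least 28.8-fold lower in CvP.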
